A study of Sus scrofa with 6 samples.

Results

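Developing muscle, limb, branchial arch and nerve are marked in pig embryos by lineage transcription factors, and 9 genes of this kind are described here: MYOG, MEOX2, BARX2, DLX5, DLX6, PHOX2A, ETV1, LHX4 and PROX1. They were chosen by symbol, with earlier results of these data known, and matched through the Ensembl pig identifier, out of 1780 genes in the count table. All 9 had at least 10 reads in total and all 9 were among the 807 genes tested. RNA was sequenced from 3 parthenotes and 3 controls, each a whole embryo at embryonic day 21 whose strain is given as Landrace x Yorkshire x Duroc (LYD). Parthenotes are embryos of an egg that no sperm entered: oocytes were started with electric pulses and grown in surrogate gilts, so every chromosome was maternal. The controls were untreated embryos with a maternal and a paternal genome, and their conception is not described here. The labels do not tell whether litter mates or embryos of 1 dam were used, so embryos of a group may not be independent. Each p-value weighs the difference between the groups against the spread among these samples only. Any difference in dam, handling or stage that went with the group and the missing paternal genome cannot be told apart.

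Lineage transcription factors switch on sets of genes that give a cell its type, and many of them are active only for a time while an organ forms. MYOG, myogenin, drives myoblasts to fuse into muscle fibres, and mice without it form few fibres. DLX5 and DLX6 are a linked homeobox pair that pattern the branchial arches and the limb bud in mice. PHOX2A specifies autonomic and some cranial motor neurons. In bulk RNA from a whole embryo, fewer cells of a type and less RNA per cell cannot be told apart.

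The genes analysed here are those of chromosome 9, where RefSeq places 604 of the 606 tested symbols it lists, and 1193714 to 1484193 reads were counted per library. Levels are in CPM, counts per 1000000 of those reads after TMM scaling, a correction for differences in library make-up. CPM is not divided by gene length, so levels are compared between embryos for 1 gene and not between genes. A floor of 3 reads corresponded to 2.02 to 2.36 CPM. PEG10, which is expressed from the paternal copy in mammals, had 27.5, 23.4 and 10.1 CPM in parthenote 1, 2 and 3, against 25305, 32101 and 34078 CPM in control 1, 2 and 3, low in every library labelled parthenote. The libraries numbered 1 stood apart within their group, with a chi-square per degree of freedom of 52.8 to 61.0 against parthenote 2 and 3, which differed from each other by 21.1, and of 141 to 143 against control 2 and 3, which differed by 6.98. The most abundant gene, which has no symbol, took 15.4% to 19.1% of reads in parthenotes and 8.29% to 20.8% in controls, with its highest control share in control 1.

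The comparison of parthenotes with controls asked whether these markers of tissue make-up and stage differed in embryos without a paternal genome. All 9 genes were detected in all 6 embryos, and all 9 averaged somewhat higher in parthenotes, by 1.10-fold for BARX2 to 1.38-fold for DLX5. None of the 9 passed edgeR's quasi-likelihood test, where 5.2% of the 807 tested genes did (42 genes, adjusted p under 0.05, Benjamini-Hochberg). Of the tested genes, 1.61% passed as higher and 3.59% as lower in parthenotes (13 and 29 genes, or 5 and 27 when scaled by library totals alone). DESeq2 and limma-voom also called 0 of the 9, while DESeq2 with the authors' scaling factors called DLX5. At an unadjusted p under 0.05, 4 of the 9 were higher (DLX5, DLX6, LHX4 and ETV1), against 9.91% of all tested genes, and DESeq2 gave 2 and limma-voom 4 of the 9. The parthenotes lay above all controls for 6 of the 9 (DLX5, DLX6, LHX4, ETV1, MYOG and PROX1), against 13.8% of all tested genes. The 9 were chosen with earlier results of these data known, so neither count can show an excess over the share of all tested genes. The log2 fold changes of the 9 genes had a median of 0.23, from 0.13 to 0.46. All 9 stayed above 0 in each of 18 alternative settings, which reuse the same 6 libraries and so are not independent checks. Over all tested genes the median was 0.02, the quartiles were -0.19 and 0.19, and 52.4% lay above 0.

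**Figure D1:**
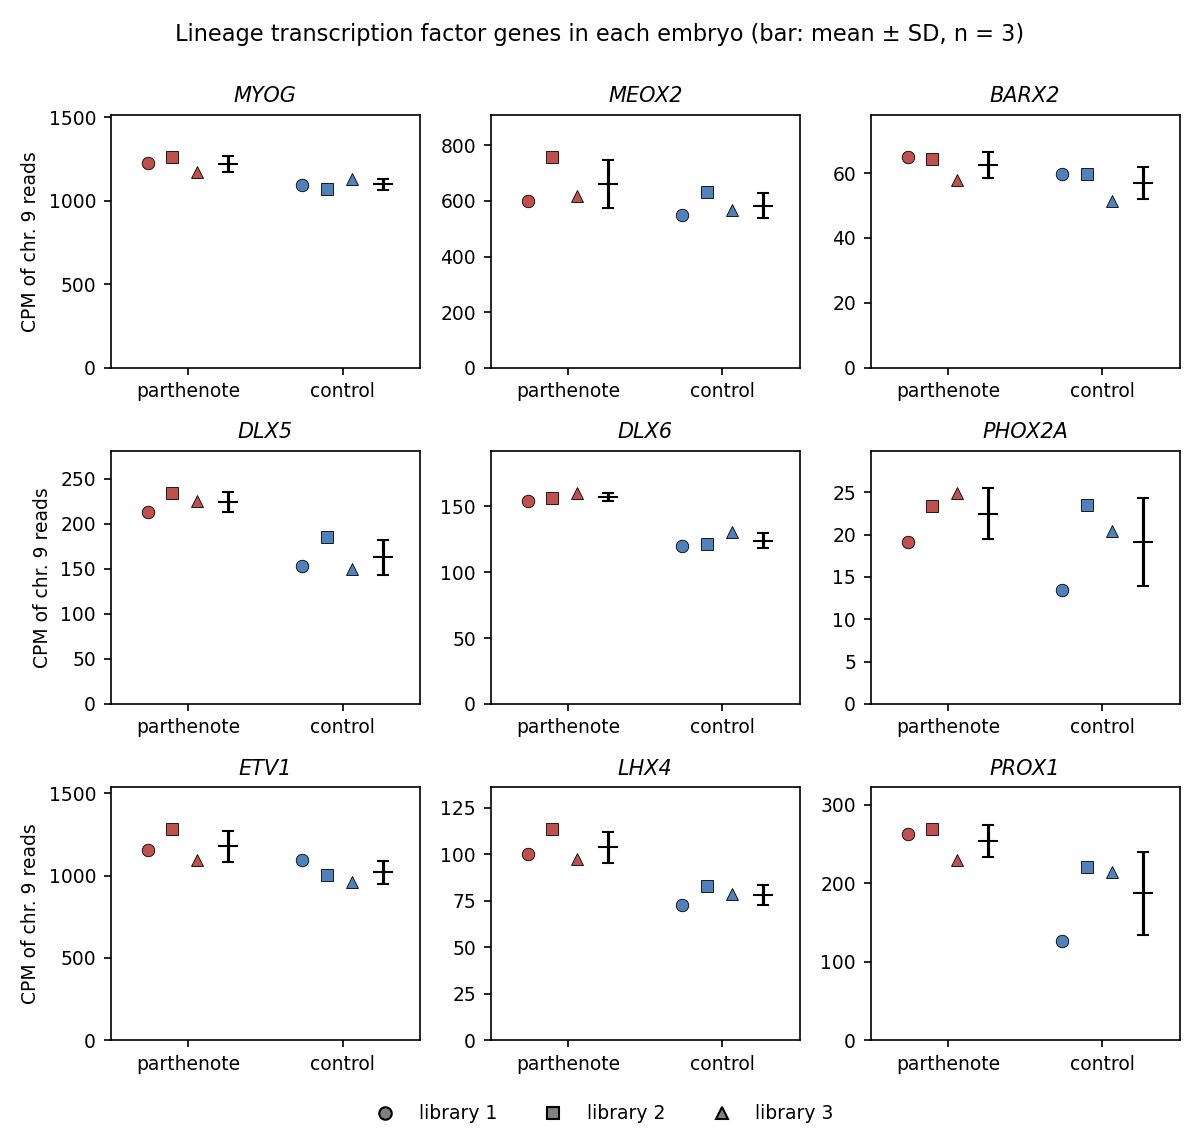
Each panel plots 1 gene, with its level in CPM of the counted chromosome 9 reads on a linear axis from 0 and the 3 parthenotes to the left of the 3 controls. Symbols mark the library number and bars give the mean ± SD. The groups are apart for MYOG, DLX5, DLX6, ETV1, LHX4 and PROX1 and overlap for MEOX2, BARX2 and PHOX2A, and control 1 is the low point for PROX1 and PHOX2A.

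Among the muscle regulators, MYOG had 1227, 1262 and 1171 CPM in parthenote 1, 2 and 3, against 1091, 1069 and 1133 CPM in control 1, 2 and 3. The lowest parthenote was above the highest control, by a small margin. The means were 1220.0 ± 45.5 CPM in parthenotes and 1098 ± 32.0 CPM in controls (SD, n = 3 each). On the log2 scale the difference was 0.15 ± 0.08 (SE), with an adjusted p of 0.290 in edgeR's test. As a ratio it was 1.11-fold, with a 95% interval of 0.988- to 1.25-fold, on 1363 to 1780 reads per library. MYOG lies at positions 113783233 to 113785312 of chromosome 9 (Sscrofa11.1, RefSeq).

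MEOX2, a homeobox factor of the somites and, in mice, of limb muscle, had 601, 759 and 619 CPM in parthenote 1, 2 and 3, against 550.0, 634 and 566 CPM in control 1, 2 and 3. The groups overlapped, since only parthenote 2 was above control 2, the highest control. Its log2 fold change of 0.18 ± 0.12 did not pass (edgeR, adjusted p = 0.431), and was 0.07 without parthenote 2. BARX2, a homeobox factor of myoblasts and of epithelia, had 65.0, 64.5 and 57.9 CPM in parthenotes 1 to 3 and 59.9, 59.6 and 51.3 CPM in controls 1 to 3. Parthenote 3 and control 3 were the lowest of their groups, and the groups overlapped. For BARX2 the log2 fold change of 0.13 ± 0.18 did not pass (edgeR, adjusted p = 0.713), and was 0.06 without control 3. The 95% intervals ran from 0.936- to 1.37-fold for MEOX2 and from 0.833- to 1.44-fold for BARX2.

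The list of other skeletal muscle genes held 44 genes, of which 2 were among the chromosome 9 genes analysed here and 0 passed the test. The other genes of this list, and genes of later lists that the text does not name, were not found by symbol among those analysed. Their levels are unknown. MYBPH, a myosin-binding protein of the thick filament, had 543, 766 and 442 CPM in parthenotes 1 to 3, against 554, 671 and 656 CPM in controls 1 to 3. Parthenotes lay on both sides of the controls, with a log2 fold change of -0.10 ± 0.19 (edgeR, adjusted p = 0.796). CRYAB, a small heat shock protein abundant in muscle and lens, had 75.9 ± 8.95 CPM in parthenotes and 98.8 ± 5.46 CPM in controls (SD, n = 3 each). It was below all controls in 3 of 3 parthenotes, where 14.3% of tested genes were, with a log2 fold change of -0.38 ± 0.16 (edgeR, adjusted p = 0.209). The median log2 fold change of this pair was -0.24. Their summed level ran from 519 to 850.0 CPM in parthenotes and from 654 to 774 CPM in controls.

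Of the limb and branchial arch pair, DLX5 had the largest log2 fold change of the 9 and DLX6 the smallest coefficient of variation within parthenotes. DLX5 had 213, 234 and 225 CPM in parthenote 1, 2 and 3, against 153, 185 and 150.3 CPM in control 1, 2 and 3. The groups did not overlap, and control 2 was the nearest to the parthenotes. DLX5 averaged 224 ± 10.8 CPM in parthenotes and 163 ± 19.5 CPM in controls (SD, n = 3 each), a log2 fold change of 0.46 ± 0.13 (edgeR, adjusted p = 0.0946). The 95% interval of the ratio was 1.11- to 1.70-fold. DLX5 passed in 1 of 18 alternative settings, DESeq2 with the authors' scaling factors (adjusted p = 0.0435, with 0.0435 to 0.276 over the 18), and its log2 fold change over the 18 was 0.40 to 0.56.

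DLX6 had 154, 157 and 160.1 CPM in parthenote 1, 2 and 3, against 119.8, 122 and 131 CPM in control 1, 2 and 3. The groups were apart, and the coefficient of variation was 1.82% in parthenotes and 4.68% in controls, on 152 to 238 reads per library. Counting error alone spreads values at such read numbers, so these small coefficients from 3 embryos each do not show that the embryos were alike. DLX6 was 1.27-fold higher with a 95% interval of 1.04- to 1.55-fold, a log2 fold change of 0.34 ± 0.13 that did not pass (edgeR, adjusted p = 0.162). DLX6 lies at 76623489 to 76630296 and DLX5 at 76639915 to 76643689, with 9618 bp between them, and DLX6 starts 2136505 bp beyond the end of PEG10. RefSeq places a long noncoding RNA across DLX6, and the library kit does not mark strand. Reads of any stretch that the 2 share could come from either, and whether their exons overlap was not examined. Per library there were 1.38, 1.49 and 1.41 DLX5 reads for each DLX6 read in parthenote 1, 2 and 3, against 1.28, 1.52 and 1.15 in control 1, 2 and 3. These ratios overlapped between the groups (exact two-sided permutation p = 0.5, where 3 against 3 cannot go below 0.1).

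Of 40 other limb, somite and branchial arch patterning factors in the list, 1 was measured. SP8, a zinc finger factor of the limb bud ridge and forebrain in mice, had 48.2, 51.8 and 59.2 CPM in parthenotes 1 to 3, against 27.6, 39.2 and 50.6 CPM in controls 1 to 3. The groups overlapped at the highest control. A log2 fold change of 0.44 ± 0.25 did not pass (edgeR, adjusted p = 0.356), and was 0.24 without control 1 and 0.66 without control 3.

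**Figure D2:**
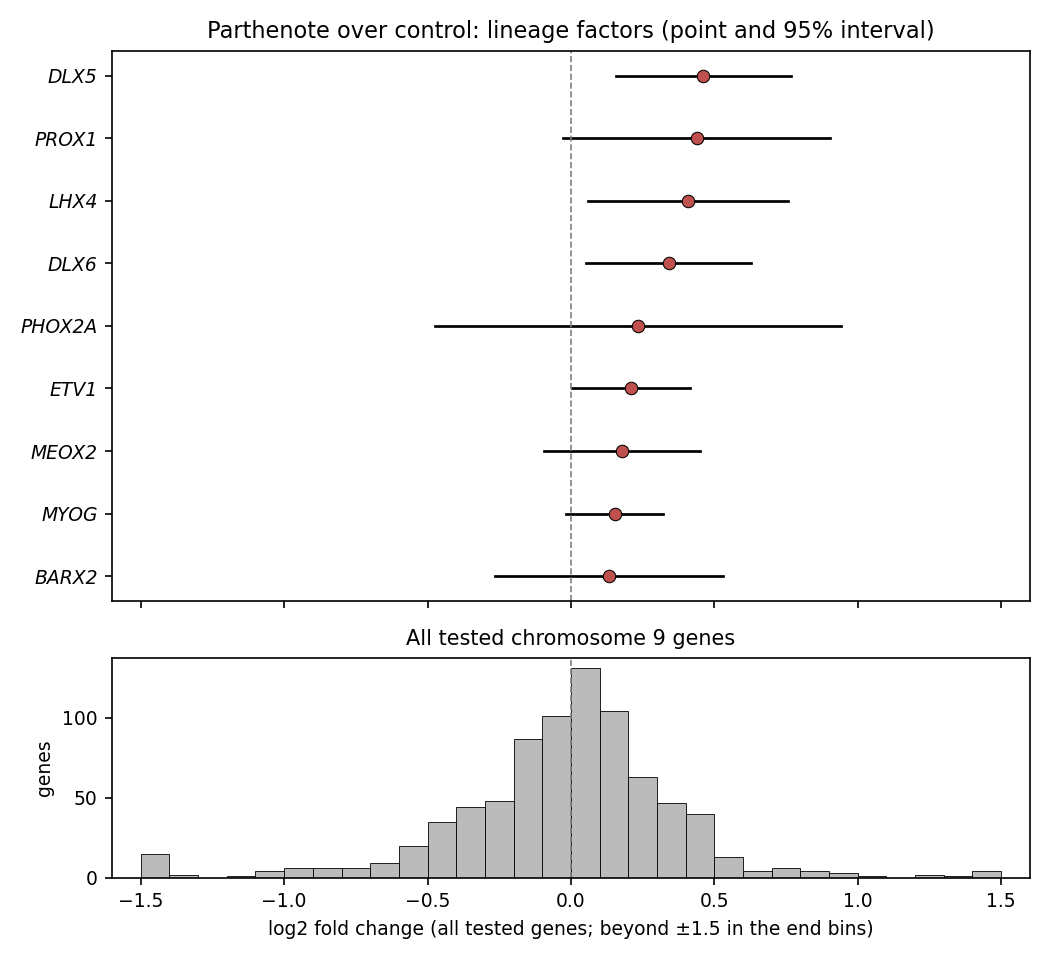
The upper panel plots the log2 fold change of parthenote over control for each of the 9 genes, with its 95% interval, and the lower panel a histogram of the same value over the 807 tested genes. The 9 points lie between 0.13 and 0.46, and the intervals of DLX5, DLX6, LHX4 and ETV1 lie above 0.

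Among the factors of nerve, LHX4, a LIM homeobox factor of the pituitary and of motor neurons in mice, had 100.2, 113 and 97.6 CPM in parthenote 1, 2 and 3, against 72.5, 83.2 and 78.5 CPM in control 1, 2 and 3. All parthenotes were above all controls. LHX4 was 1.33-fold higher with a 95% interval of 1.04- to 1.69-fold, a log2 fold change of 0.41 ± 0.15 that did not pass (edgeR, adjusted p = 0.162). ETV1, an ETS factor needed in mice for the wiring of muscle stretch sensory neurons, had 1157, 1282 and 1098 CPM in parthenote 1, 2 and 3, against 1095, 1004 and 959 CPM in control 1, 2 and 3. The groups were apart by less than the spread within either of them, since parthenote 3 and control 1 nearly met. ETV1 was 1.16-fold higher with a 95% interval of 1.00- to 1.33-fold, a log2 fold change of 0.21 ± 0.09 (edgeR, adjusted p = 0.216). The ETV1 span holds an annotated pseudogene, whose reads could be counted in either.

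PHOX2A had the fewest reads of the 9, with 25, 33 and 37 reads in parthenote 1, 2 and 3, against 17, 30 and 27 reads in control 1, 2 and 3. These were 19.1, 23.4 and 24.9 CPM in parthenotes and 13.4, 23.5 and 20.4 CPM in controls, and the groups overlapped. PHOX2A had a log2 fold change of 0.23 ± 0.31 (edgeR, adjusted p = 0.713), and 0.04 without control 1, 0.41 without control 2 and 0.14 without parthenote 3. As a ratio PHOX2A was 1.18-fold, with a 95% interval of 0.720- to 1.92-fold, the widest interval of the 9 genes.

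PROX1, a homeobox factor of neural progenitors, liver, lens and lymphatic endothelium, had 262, 269 and 230.1 CPM in parthenote 1, 2 and 3, against 126, 221 and 214 CPM in control 1, 2 and 3. Control 1 lay far below all other embryos, and the remaining controls were close to parthenote 3. The means were 254 ± 20.7 CPM in parthenotes and 187 ± 52.9 CPM in controls (SD, n = 3 each). PROX1 had a log2 fold change of 0.44 ± 0.21 (edgeR, adjusted p = 0.263), or 1.36-fold with a 95% interval of 0.982- to 1.87-fold. It was 0.22 ± 0.13 without control 1 (edgeR, adjusted p = 0.351) and 0.19 ± 0.12 without both libraries numbered 1 (adjusted p = 0.345). RefSeq spans of protein-coding genes without a name overlap the spans of PROX1 and BARX2, so some of their reads may be uncertain.

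Of 30 other neuron and pituitary specification factors in the list, 1 was measured, and it passed. SP4, a zinc finger factor abundant in neurons, had 1021, 1068 and 1111 CPM in parthenote 1, 2 and 3, against 794, 831 and 886 CPM in control 1, 2 and 3. All parthenotes were above all controls. SP4 rose by 0.35 ± 0.08 in log2 units (edgeR, adjusted p = 0.0446), but it passed in only 4 of the 18 alternative settings, which were DESeq2 with either scaling, the replicate block and the authors' normalized values in limma (adjusted p 0.0158 to 0.236 over the 18). It did not pass with any of the 6 libraries left out (0.0575 to 0.179). No gene of the list of 20 autonomic and neural crest genes was analysed here, so PHOX2A has no partner to be set beside.

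Of 24 other ETS factors in the list, 3 were measured beside ETV1, and 0 passed. ETS1 and FLI1, factors of blood vessels and blood cells, had log2 fold changes of -0.01 ± 0.09 and -0.16 ± 0.09, and ELK4, a partner of serum response factor, -0.30 ± 0.14 (adjusted p 0.966, 0.320 and 0.285 in edgeR's test). ETS1 lay above 0 in 4 of the 18 alternative settings. The median was -0.16, and the summed level was 3948 to 4163 CPM in parthenotes and 4133 to 4448 CPM in controls, which overlap.

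Of the 21 liver, lymphatic and lens genes listed beside PROX1, 3 were measured, all apolipoproteins of liver and yolk sac. APOC3 rose, at 4059 ± 1149 CPM in parthenotes and 1917 ± 252 CPM in controls (SD, n = 3 each), a log2 fold change of 1.08 ± 0.20 (edgeR, adjusted p = 0.0178). Leaving out any 1 of the 3 controls ended this call (adjusted p up to 0.0730). APOA1 and APOA4 had log2 fold changes of 0.11 ± 0.24 and 0.48 ± 0.81 (adjusted p 0.834 and 0.780). APOA1 lay below 0 without parthenote 1, and APOA4 without parthenote 2. The median of the 3 was 0.48, and their summed level ran from 26128 to 51368 CPM in parthenotes and from 29039 to 33808 CPM in controls.

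Markers of blood, immune cells, endothelium and uterus were read as a check of what else the embryos held. Of the 17 listed, 5 were in the table, 2 were tested and 0 passed. HBB, a beta-type globin, had 167, 575 and 102 CPM in parthenote 1, 2 and 3, against 873, 1226 and 2065 CPM in control 1, 2 and 3, lower in 3 of 3 parthenotes. ESAM, an endothelial adhesion gene, had 328 ± 24.1 CPM in parthenotes and 440 ± 20.2 CPM in controls (SD, n = 3 each). The log2 fold changes were -2.30 ± 0.78 for HBB and -0.42 ± 0.11 for ESAM (adjusted p = 0.189 and 0.0677 in edgeR's test). HBB was at -3.37 ± 0.42 without parthenote 2 and at -1.90 without control 3. It passed without parthenote 2 and in DESeq2 with either scaling, and ESAM in DESeq2 with either scaling (adjusted p 0.00550 to 0.364 for HBB and 0.0175 to 0.208 for ESAM over the 18 settings). The T cell gene CD3D was at 0 in all libraries, and CD3E and PGR, the progesterone receptor of the uterus, had 7 and 6 reads over all 6. The summed level of this list, nearly all of it HBB and ESAM, was 406 to 927 CPM in parthenotes and 1299 to 2501 CPM in controls, without overlap. This sum therefore says little of immune cells or uterus. Its blood part rests on HBB alone, which did not pass edgeR's test with all 6 libraries. The part of these markers in the values of the 9 lineage factors was not tested.

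Within a group, the embryos differed in how many factors lay above the group mean. Parthenote 2 was above its group mean for 8 of the 9 genes, and parthenote 1 and parthenote 3 for 3 each. Control 1 was above its group mean for 2 of the 9, control 2 for 6 and control 3 for 5. No share over all tested genes was set beside these counts, and whether they follow a shift of the whole library was not tested. The widest deviations were those of control 1, at -0.52 for PROX1 and -0.44 for PHOX2A on the log2 CPM scale. For MYOG and DLX6 no embryo was more than 0.08 from its group mean.

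**Figure D3:**
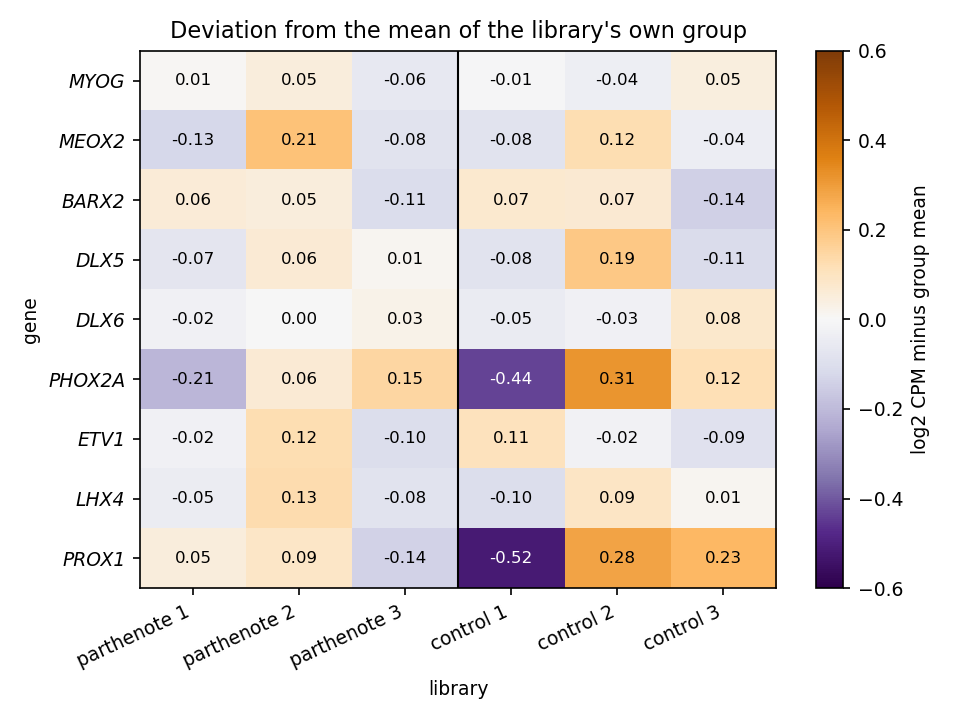
Each cell gives the log2 CPM of a gene (rows) in a library (columns, the 3 parthenotes left of the 3 controls) minus the mean of that library's group. Orange is above and purple below the mean, with control 1 lowest for PROX1 at -0.52 and for PHOX2A at -0.44, and parthenote 2 above its mean for 8 of the 9 genes.

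**Figure D4:**
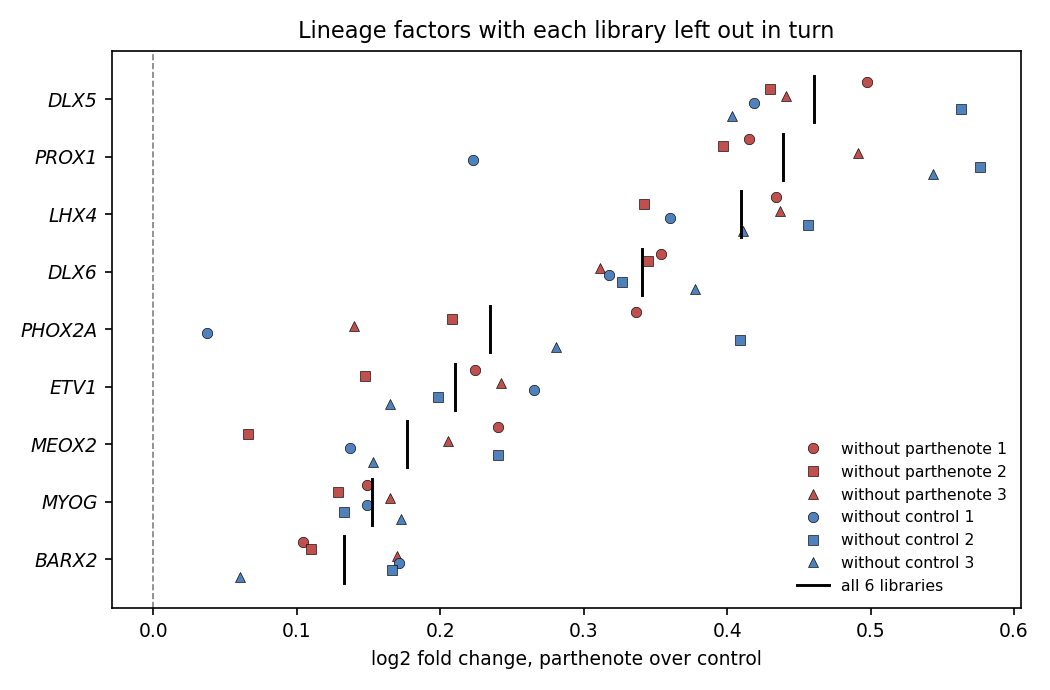
The log2 fold change of each of the 9 genes is plotted with all 6 libraries (black line) and with each library left out in turn (red for a parthenote left out, blue for a control). All points lie above 0, and the widest moves are those of PROX1, to 0.22, and PHOX2A, to 0.04, when control 1 is left out.

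The gene whose log2 CPM was most like that of each factor over the 6 libraries was taken from 656 tested genes with a symbol. It was SP4 for DLX6 (Pearson r = 0.992), NTM for DLX5 (0.990), PGM2L1 for LHX4 (0.991) and KIRREL3 for PROX1 (0.983). It was INTS7 for PHOX2A (0.991), LHFPL3 for MYOG (0.976), APBB1 for ETV1 (0.975), DGKB for MEOX2 (0.960) and RPUSD4 for BARX2 (0.955). After subtraction of group means, r with the same gene was 0.889 to 0.992. Each gene was picked as the highest of 656 over only 6 libraries, and the first r includes any difference between the groups. High values are therefore to be read as descriptions only. When CPM was scaled by library totals alone, 5 of the 9 factors had the same nearest gene. Among the 9 factors themselves the closest pair was DLX5 and LHX4 (r = 0.945), which lie far apart on the chromosome.

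The nearest tested gene with a known position on either side of each factor, leaving out DLX5 and DLX6 as neighbours of each other, made 16 neighbours. In log2 fold change 10 of the 16 lay above 0 and 6 below, and the median was 0.10. The values ran from -0.43 ± 0.13 for SLC25A13, 642882 bp from DLX6, to 0.37 ± 0.17 for ARHGAP32, 83754 bp from BARX2. None of the 16 was called by edgeR (lowest adjusted p = 0.108, with 2 at an unadjusted p under 0.05), by DESeq2 or by limma-voom.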

How the data were processed

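Whole-embryo RNA was prepared with the TruSeq RNA kit v.2, which does not mark strand, per the labels' protocols. The submitters' processing notes name HISAT2 2.1.0, SAMtools 1.9 and the build Sscrofa11.1, and the counting tool was not stated in them. A table the authors deposited holds raw read counts per gene. Their deposited normalized signal, for 1190 genes, is close to those counts times 1 factor per sample (the 9 genes differed by up to 2 reads). Symbols came from the Ensembl identifiers (779 of 1780 matched) and positions from RefSeq's Sscrofa11.1 table. The test was edgeR 4.0.16 (R 4.3.3) on the read counts: filterByExpr (minimum count 10, minimum total 15), TMM, the robust quasi-likelihood method, parthenote over control, Benjamini-Hochberg over 807 genes at 0.05. The fit was tested on simulated data. Floors cover counting error only. Alternatives used DESeq2 1.42.0 (also with the authors' factors), limma 3.58.1 with voom or on log2(normalized value + 1), other scalings and filters, a replicate block and libraries left out.

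The 9 genes and the lists were chosen with earlier results of these data known. The text names all 9, up to 4 called and 3 other genes of each list, and the gene most like each factor of at least 20 CPM. The labels do not say what a replicate number marks. After subtraction of group means, parthenote and control of number 1, 2 and 3 correlated over genes at 0.365, 0.272 and 0.147, all above 0.1. Parthenotes and controls of unlike number correlated at -0.298 to 0.145, the highest being control 3 with parthenote 2, close to the value of number 3. The blocked alternative treated the numbers as pairs, but whether they mark pairs was not tested. No 2 libraries of a group agreed within sampling noise (chi-square per degree of freedom 6.98 to 143).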

Additional observations from a re-analysis of the deposited data

How the results depend on the processing

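Of 18 alternative settings, 4 of them added after seeing the data (the authors' normalized values, DESeq2 with the authors' scaling factors, the most abundant gene left out, both libraries numbered 1 left out), 17 called 0 of the 9 lineage factors. DESeq2 with the authors' scaling factors called 1, DLX5; the cause was not tested. Of 162 values of the 9 genes, 161 kept their direction and their side of the threshold, DLX5 there being the exception, and 0 changed sign. At an unadjusted p under 0.05 there were 2 of the 9 in DESeq2 and 1 with library totals only (DLX5 in each), against 5 with the replicate block, which kept the calls of SP4, APOC3, PGM2L1 and PEG10. Over all genes the replicate block gave 55 called genes, against 42 without it. DESeq2 called 65, DESeq2 with the authors' scaling factors 72, and the fit without both libraries numbered 1 called 76; the cause was not tested. Leaving out 1 library gave 17 to 55 called genes, with 17 without control 2, 18 without control 3, 26 without parthenote 2 and 22 without parthenote 3. Among the called genes 13 were higher and 29 lower, with 5 and 27 under library totals only and 29 and 43 with the authors' scaling factors in DESeq2. Some genes of the lists changed sign. With 1 library left out, APOA4 ran from -1.28 to 0.96, APOA1 from -0.23 to 0.29, MYBPH from -0.35 to 0.046 and ETS1 from -0.032 to 0.025 (log2 fold change). APOA4 was also at -0.27 in limma-voom and -0.21 on the authors' normalized values, APOA1 at -0.21 without both libraries numbered 1, and ETS1 at 0.010 on the authors' normalized values, 0.0090 in DESeq2 with the authors' scaling factors and 0.021 without both libraries numbered 1. Among the 9 genes PHOX2A had the fewest reads, at 17 to 37 per library.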
